A study of Mus musculus with 8 samples.

Results

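The antioxidant response governed by the transcription factor NRF2 was followed in bulk RNA sequencing of mouse lung after bleomycin, which cuts DNA and scars the lungs of rodents. The genes examined were Nfe2l2, Keap1 and Sqstm1, which encode NRF2, its repressor KEAP1 and the autophagy receptor p62, and the core targets Nqo1, Hmox1, Gclc, Gclm, Txnrd1, Srxn1 and Slc7a11. They were chosen by name, with earlier results of these data known, and all 10 were found by symbol among the 18824 genes of the table. Each also passed the filter on low counts, so all 10 were among the 14746 genes tested. The libraries came from lungs of Slc15a3-/- mice given bleomycin (KO_BLM, 4 libraries) and of WT mice given bleomycin (WT_BLM, 4 libraries). All of these mice were 8 weeks old, had been given BLM intratracheally (2 mg/kg, 50 µl saline), and lungs were taken on day 21. Slc15a3 encodes a proton-coupled histidine and peptide transporter of endolysosomes. The labels give neither the design of the knockout allele, the strain, the sex nor any batch, nor whether each library is a different animal, so p-values measure the spread between these libraries, which may be partly technical. Lungs given saline alone were not analysed here. Each difference is one between KO_BLM and WT_BLM libraries under bleomycin, where genotype cannot be told apart from a batch that went with it.

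NRF2 is made continuously and is normally handed by KEAP1, an adaptor of a CUL3 ubiquitin ligase, to the proteasome. Oxidants and electrophiles modify cysteines of KEAP1, and p62 can bind KEAP1 and carry it into autophagosomes, and in both cases NRF2 accumulates and, paired with small MAF proteins, binds antioxidant response elements. This control acts mainly on the protein, so the level of Nfe2l2 mRNA is not a measure of NRF2 activity. The targets serve glutathione synthesis, the thioredoxin system, quinone reduction and heme breakdown, and Sqstm1 is itself an NRF2 target. In lung the pathway is known for protection against inhaled oxidants and bleomycin.

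Promoter sequences are shown for 4 of the target genes whose level fell in KO_BLM, to set the search for response elements beside the values that follow. RefSeq windows of 300 bases on GRCm38.p6 (mm10), from 250 bases before to 50 bases after an annotated start, were at hand for 8 of the 10 genes, with 3 windows for Txnrd1. No window is shown for Hmox1 or Gclc. The motifs searched on both strands were the core of the antioxidant response element, TGACNNNGC, the AP-1 element TGANTCA, which can share bases with it, and the core of the C/EBP-ATF response element bound by ATF4, TGATGNAA. Capitals mark every match in the 250 bases upstream of the start, printed 5′ to 3′ on the strand of the gene.
Srxn1, chr2:152105274-152105523, plus strand: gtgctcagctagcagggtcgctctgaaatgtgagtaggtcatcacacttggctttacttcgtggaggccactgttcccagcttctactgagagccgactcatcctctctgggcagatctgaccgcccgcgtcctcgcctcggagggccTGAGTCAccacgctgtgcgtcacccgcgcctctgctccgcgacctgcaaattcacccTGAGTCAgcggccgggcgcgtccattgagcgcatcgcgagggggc
Txnrd1, the second of its windows, chr10:82858956-82859205, plus strand: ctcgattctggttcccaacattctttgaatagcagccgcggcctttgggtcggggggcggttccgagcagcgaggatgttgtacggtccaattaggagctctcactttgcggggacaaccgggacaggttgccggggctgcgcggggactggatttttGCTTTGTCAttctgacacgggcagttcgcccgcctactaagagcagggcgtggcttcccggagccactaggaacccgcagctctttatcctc
Gclm, chr3:122245307-122245556, plus strand: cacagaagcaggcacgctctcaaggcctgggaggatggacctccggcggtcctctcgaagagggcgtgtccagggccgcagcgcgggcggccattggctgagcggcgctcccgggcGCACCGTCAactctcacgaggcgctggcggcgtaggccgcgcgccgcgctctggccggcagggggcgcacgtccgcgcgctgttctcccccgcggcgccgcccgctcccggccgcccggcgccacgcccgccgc
Slc7a11, chr3:50443614-50443863, minus strand: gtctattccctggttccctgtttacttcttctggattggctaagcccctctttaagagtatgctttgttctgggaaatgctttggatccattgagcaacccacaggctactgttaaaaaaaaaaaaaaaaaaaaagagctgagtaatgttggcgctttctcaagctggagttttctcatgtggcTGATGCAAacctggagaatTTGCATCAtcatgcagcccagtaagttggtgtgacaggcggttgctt

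In these sequences Txnrd1 and Gclm each hold 1 match to the antioxidant response element core, both on the reverse strand, starting 92 and 134 bases upstream of the start. Srxn1 holds the AP-1 element TGAGTCA at 102 and 45 bases upstream, and 1 antioxidant core within the 50 bases after its start. Slc7a11 holds the C/EBP-ATF core 2 times, in opposite directions, at 66 and 47 bases upstream, and no antioxidant core in this window. Over the 8 genes with a window, the antioxidant core occurred in 4, the fourth being Nfe2l2, whose match TGACTCCGC starts 240 bases upstream. It was present in 12.4% of all 32851 such windows and in at least 1 window of 14.0% of 27025 genes. The AP-1 element occurred in 7.81% and the C/EBP-ATF core in 3.97% of windows, and in at least 1 window of 8.97% and 4.51% of genes. Among the 8 genes the AP-1 element was found in Srxn1 alone and the C/EBP-ATF core in Slc7a11 alone. Keap1, Sqstm1 and Nqo1 had none of the 3 motifs in this window. A match describes letters and is not a measured binding site, and many known elements lie outside windows of this length.

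Loss of the targeted transcript was as labelled. Slc15a3 had 8, 5, 18 and 15 counts in the KO_BLM libraries, against 935, 1124, 974 and 841 counts in the WT_BLM libraries (log2 difference −6.36, SE 0.23, edgeR adjusted p = 9.36e-07). Total counts ran from 17627999 to 18471445 in KO_BLM and from 18878835 to 20180831 in WT_BLM. Across all genes tested, edgeR's quasi-likelihood test with Benjamini-Hochberg adjustment at 0.05 called 6118 genes, 41.5%, of which 3057 were higher (20.7%) and 3061 lower (20.8%) in KO_BLM, so a call is common in this comparison. With library totals in place of TMM scaling the higher genes made up 62.7% of the calls in place of 50.0%. WT_BLM replicate 4 had the highest level of its group for 9 of the 10 genes and the lowest for the other, Nfe2l2, and KO_BLM replicate 4 had the highest of its group for 6. KO_BLM replicates 1 and 2 lay below replicates 3 and 4 for Hmox1, Srxn1, Slc7a11, Gclm and Nfe2l2, and results are given without these libraries where that changes them.

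Of the 10 genes, 5 fell in KO_BLM, 0 rose and 5 did not pass the test. That is 50.0% lower, where 20.8% of all tested genes were lower. The genes that fell were Hmox1, Slc7a11, Srxn1, Txnrd1 and Gclm, all of them targets, with decreases from 1.36-fold to 2.42-fold. None of the 3 regulators was called. Groups were fully separated for 4 genes, Hmox1, Srxn1, Txnrd1 and Gclm, all lower in KO_BLM, where 40.9% of all tested genes were separated and 20.7% were separated and lower. The median log2 fold change of the 10 genes was −0.52, against 0.0025 over all tested genes. In bulk tissue fewer cells of a type and less RNA per cell cannot be told apart. Under every alternative, each of the 10 genes that was called was lower, so the genes lower among all are given beside the share called either way. Without KO_BLM replicate 1, 3 of the 10 were called, against 34.7% of all genes (2559 of 14895 lower). Without replicate 2 it was also 3, against 30.2% (2178 of 14879 lower), and without both of them 1, against 22.6% (1645 of 15049 lower). By DESeq2 and by limma-voom 6 were called, against 45.8% and 51.9% of all genes (3431 and 3853 genes lower). By limma on log2(FPKM + 1) and log2(FPKM + 0.1) it was 3 each, against 30.9% and 31.2% (2148 and 2194 of 18824 lower). The share of all genes called was 33.9% without KO_BLM replicates 3 and 4, 38.3% without WT_BLM replicate 4, 41.0% with library totals and 38.7% with a replicate block.

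**Figure D1:**
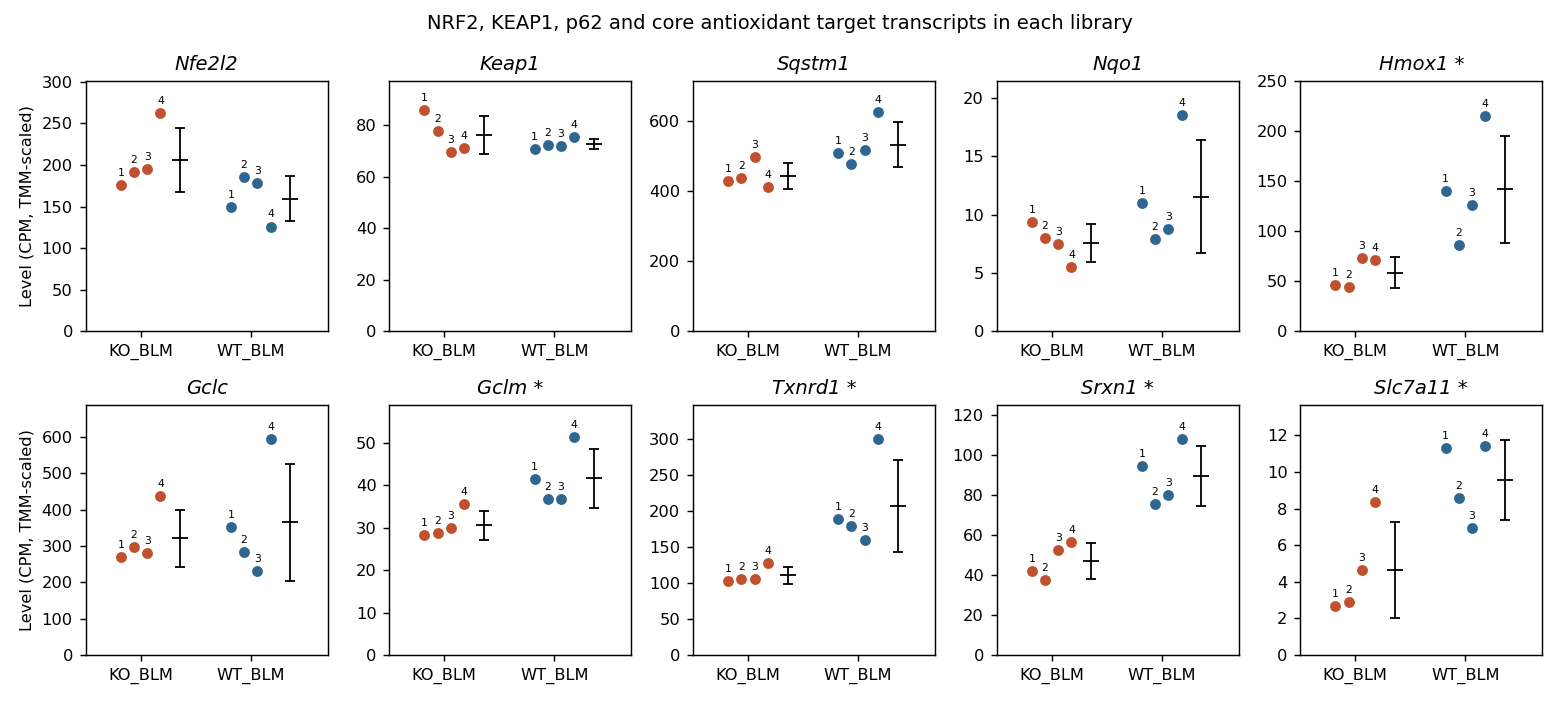
Level of each of the 10 genes in every library, in CPM with TMM-scaled library sizes, on linear axes from 0. Points are libraries with their replicate number, black bars are mean ± SD (n = 4), and asterisks mark genes past the edgeR threshold; the KO_BLM points of Hmox1, Gclm, Txnrd1 and Srxn1 all lie below the WT_BLM points, and WT_BLM replicate 4 is the highest point of its group except for Nfe2l2.

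Coordinates are those of whole genes on GRCm38.p6. Among the regulators, Nfe2l2 mRNA was not called. Nfe2l2 (chr2:75675513-75704663) was at 176, 191, 195 and 262 CPM (counts scaled to library size by TMM) in KO_BLM replicates 1 to 4, against 149, 185, 178 and 126 CPM in WT_BLM. The groups overlapped, and the level was highest in KO_BLM replicate 4 and lowest in WT_BLM replicate 4. The mean was 206 ± 38.0 CPM in KO_BLM and 160 ± 27.1 CPM in WT_BLM (SD, n = 4 each), and the log2 fold change of 0.37 (SE 0.15) did not pass (edgeR adjusted p = 0.0782). The difference was 0.23 without KO_BLM replicate 4, 0.23 by limma-voom and 0.20 without KO_BLM replicates 3 and 4. It was called under none of 21 alternatives, with adjusted p from 0.0549 to 0.340.

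Keap1 (chr9:21229730-21239332), the adaptor that presents NRF2 for destruction, had the smallest fitted difference of the 10 genes. Its level was 85.9, 77.7, 69.6 and 71.3 CPM in KO_BLM and 70.9, 72.5, 72.1 and 75.6 CPM in WT_BLM. The KO_BLM range enclosed the WT_BLM range. By edgeR the log2 difference was 0.065 with an SE of 0.08 (adjusted p = 0.554), and its sign turned without KO_BLM replicates 1 and 2 (−0.045). Within each library the ratio of Nfe2l2 to Keap1 on the FPKM scale (per length and sequencing depth) averaged 4.80 in KO_BLM and 3.88 in WT_BLM as geometric means, a log2 difference of 0.31, with overlapping groups.

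Sqstm1 (chr11:50200152-50210820), for p62, lay slightly lower in KO_BLM without passing the test. Its level was 430, 437, 498 and 412 CPM in KO_BLM, against 509, 478, 517 and 627 CPM in WT_BLM. The groups overlapped through KO_BLM replicate 3 and WT_BLM replicate 2. By edgeR the log2 difference was −0.26 with an SE of 0.11 (adjusted p = 0.0703). It was called lower by DESeq2 (adjusted p = 0.0374), by limma-voom (adjusted p = 0.0345) and by edgeR without KO_BLM replicate 3 (log2 fold change −0.32, adjusted p = 0.0495), over a range of 0.0345 to 0.275 across alternatives. Relative to Nbr1, a related autophagy receptor, the FPKM of Sqstm1 was 3.11, 2.93, 3.37 and 2.81 times in KO_BLM and 4.44, 3.68, 3.83 and 4.78 times in WT_BLM. The log2 difference of this ratio was −0.45, a description with no test, as the ratio was chosen after its values were seen and both genes enter it. Nbr1 itself lay at 123 to 133 CPM in KO_BLM and 102 to 120 CPM in WT_BLM, without overlap, and was not called (log2 difference 0.19, SE 0.08, edgeR adjusted p = 0.0737), though it was called higher under 6 of the 21 alternatives. In the GENCODE annotation exons of Sqstm1 overlap those of Mrnip on the opposite strand by up to 580 bases, and since the strand setting of the counting is not known, shared reads are possible. Mrnip reached at most 4.43 CPM in KO_BLM and 3.87 CPM in WT_BLM.

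Among the genes of glutathione supply, the cystine carrier and the modifier subunit fell while the catalytic subunit did not pass. Slc7a11 (chr3:50364936-50499087) encodes the transport subunit of the exchanger that brings in cystine for glutathione synthesis. It had the lowest level per length of the 10 genes, with 49, 52, 89 and 160 counts in KO_BLM and 206, 173, 130 and 210 counts in WT_BLM. As CPM these were 2.70, 2.90, 4.64 and 8.34 in KO_BLM, against 11.3, 8.58, 6.96 and 11.4 in WT_BLM. KO_BLM replicate 4 lay above WT_BLM replicate 3, so the groups overlapped. Slc7a11 was 2.05-fold lower, a log2 difference of −1.04 with an SE of 0.34 (edgeR adjusted p = 0.0342). This call held under 11 of 20 alternatives, with adjusted p from 0.00175 to 0.214 across alternatives. It was lost without KO_BLM replicate 1 (adjusted p = 0.0756), 2 (0.0936) or 3 (0.0731), without WT_BLM replicate 1 (0.0837) or 4 (0.0754), under scaling by library totals (0.0567) and by limma on log2(FPKM + 1) (0.0541) or log2(FPKM + 0.1) (0.0552), which were unfiltered. Without KO_BLM replicates 1 and 2 the log2 fold change was −0.56 (edgeR adjusted p = 0.214), and without replicates 3 and 4 it was −1.78 (adjusted p = 0.00278). Slc3a2, the heavy chain that escorts SLC7A11 and other carriers to the membrane, fell as well, with 281 ± 14.4 CPM in KO_BLM and 367 ± 31.2 CPM in WT_BLM (SD, n = 4 each; log2 difference −0.39, SE 0.09, edgeR adjusted p = 0.00678), and kept its call under all 21 alternatives.

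Glutamate-cysteine ligase, the rate-limiting enzyme of glutathione synthesis, joins a catalytic subunit (Gclc) and a modifier subunit (Gclm). Gclm (chr3:122245487-122267215) stood at 28.2, 28.8, 29.9 and 35.6 CPM in KO_BLM and at 41.5, 36.8, 36.8 and 51.5 CPM in WT_BLM. All KO_BLM libraries were below all WT_BLM libraries. Gclm was 1.36-fold lower, a log2 difference of −0.44 with an SE of 0.13 (edgeR adjusted p = 0.0193). The call was lost without KO_BLM replicate 1 (adjusted p = 0.0510), 2 (0.0636) or 3 (0.0503), without replicates 1 and 2 together (0.172) and in unfiltered limma on log2(FPKM + 1) (0.0607) or log2(FPKM + 0.1) (0.0553), over a range of 0.00369 to 0.172. GENCODE places exons of Gm6061, a processed pseudogene, on the same strand and of Gm17494 on the opposite strand over those of Gclm, so some of its reads may be shared or lost.

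Gclc (chr9:77754535-77794489) varied widely between libraries of both genotypes. It was at 269, 297, 281 and 439 CPM in KO_BLM, against 353, 284, 231 and 596 CPM in WT_BLM. Replicate 4 was the highest library in both groups, and in WT_BLM the highest was 2.58 times the lowest. Its log2 difference of −0.19, with an SE of 0.28 (edgeR adjusted p = 0.614), turned to 0.15 without WT_BLM replicate 4. The ratio of Gclc to Gclm on the FPKM scale averaged 6.10 in KO_BLM and 4.91 in WT_BLM, a log2 difference of 0.32, with overlapping groups.

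Both genes of the thioredoxin system fell. Txnrd1 (chr10:82833951-82897724), the cytosolic selenoenzyme that recharges thioredoxin with electrons of NADPH, was at 102, 106, 105 and 128 CPM in KO_BLM, against 188, 179, 159 and 300 CPM in WT_BLM. Every KO_BLM library was below every WT_BLM library, and the KO_BLM values lay close together, at 110 ± 11.8 CPM, against 207 ± 63.5 CPM in WT_BLM (SD, n = 4 each). Txnrd1 was 1.87-fold lower, a log2 difference of −0.90 with an SE of 0.18 (edgeR adjusted p = 0.00416). Without WT_BLM replicate 4 it was −0.67 (adjusted p = 0.00133), and only without both KO_BLM replicates 1 and 2 was the call lost (−0.83, adjusted p = 0.0510, range 3.10e-05 to 0.0510).

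The mitochondrial counterpart of Txnrd1 differed in direction. Txnrd2 was at 15.8 ± 0.827 CPM in KO_BLM and 12.6 ± 1.40 CPM in WT_BLM (SD, n = 4 each; log2 difference 0.32, SE 0.11, edgeR adjusted p = 0.0433). Its call was lost under 10 of the 21 alternatives, among them leaving out KO_BLM replicate 1 (adjusted p = 0.0967), 2 (0.0978) or 3 (0.0784) or WT_BLM replicate 1 (0.110), 2 (0.0629) or 4 (0.0847) (range 0.0136 to 0.211). The ratio of Txnrd1 to Txnrd2 on the FPKM scale was 2.95, 3.12, 3.11 and 4.16 in KO_BLM and 7.43, 6.43, 5.28 and 12.8 in WT_BLM. The log2 difference of this ratio was −1.19, given without a test since both genes are separated between the groups on their own.

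Srxn1 (chr2:152105524-152111376) encodes sulfiredoxin, which repairs over-oxidised peroxiredoxins, and its promoter is the window above with a pair of AP-1 elements. It was at 41.9, 37.3, 52.3 and 56.3 CPM in KO_BLM, against 94.4, 75.2, 79.8 and 108 CPM in WT_BLM. The highest KO_BLM library was well below the lowest WT_BLM library. Srxn1 was 1.90-fold lower, a log2 difference of −0.93 with an SE of 0.15 (edgeR adjusted p = 0.00152), the smallest adjusted p of the 10 genes. It was the only gene of the 10 called under all 21 alternatives (adjusted p 5.73e-07 to 0.0187), including the fit without KO_BLM replicates 1 and 2 (log2 fold change −0.72, adjusted p = 0.0187).

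Hmox1 (chr8:75093618-75100593) encodes the inducible heme oxygenase, which splits heme into biliverdin, iron and carbon monoxide, and showed the largest decrease of the 10 in the main fit. Slc7a11 fell further by limma-voom (log2 fold change −1.41 against −1.32 for Hmox1), without KO_BLM replicate 4 (−1.49 against −1.39) and without KO_BLM replicates 3 and 4 (−1.78 against −1.66). Hmox1 was at 46.4, 43.9, 73.2 and 70.9 CPM in KO_BLM, against 140, 86.6, 126 and 215 CPM in WT_BLM. The groups did not overlap, KO_BLM replicates 1 and 2 lay below replicates 3 and 4, and WT_BLM replicate 2 was closest to the knockout. The mean was 58.6 ± 15.6 CPM in KO_BLM and 142 ± 53.9 CPM in WT_BLM (SD, n = 4 each), 2.42-fold lower, a log2 difference of −1.27 with an SE of 0.27 (edgeR adjusted p = 0.00502). Without KO_BLM replicates 1 and 2 it was −0.98 and not called (adjusted p = 0.0568), the single loss across the alternatives (range 1.91e-05 to 0.0568).

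The constitutive isozyme gene Hmox2 was not called, at 60.8 ± 7.88 CPM in KO_BLM and 70.6 ± 4.69 CPM in WT_BLM (SD, n = 4 each; log2 difference −0.21, SE 0.10, edgeR adjusted p = 0.113). The ratio of Hmox1 to Hmox2 on the FPKM scale was 0.887, 0.840, 1.07 and 1.20 in KO_BLM and 2.23, 1.34, 1.83 and 2.96 in WT_BLM. The log2 difference of this ratio, also a description, was −1.02.

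Nqo1 (chr8:107388225-107403205), a quinone reductase often used as a readout of NRF2, was low in these lungs and did not pass. It was at 9.37, 7.98, 7.51 and 5.48 CPM in KO_BLM and at 11.0, 7.89, 8.73 and 18.5 CPM in WT_BLM. KO_BLM replicates 3 and 4 lay below all WT_BLM libraries and WT_BLM replicates 1 and 4 above all KO_BLM libraries, while the others overlapped. The log2 fold change was −0.60 (SE 0.27, edgeR adjusted p = 0.102), and −0.28 without WT_BLM replicate 4 (adjusted p = 0.288). It was called under none of the alternatives (adjusted p 0.0504 to 0.379).

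**Figure D2:**
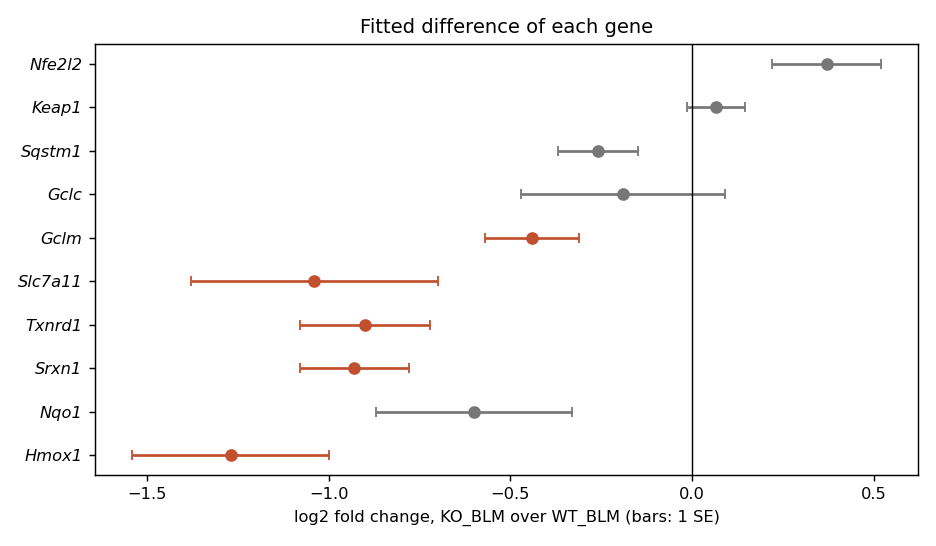
Fitted log2 fold change, KO_BLM over WT_BLM, of each gene in the order regulators, glutathione supply, thioredoxin system, quinone and heme enzymes. Points are edgeR estimates with bars of 1 SE, orange where the adjusted p was below 0.05; the 5 called genes lie between −0.44 (Gclm) and −1.27 (Hmox1), and Nfe2l2 (0.37) and Keap1 (0.065) lie above 0.

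Levels can be compared between genes only per length, for which the authors' FPKM values and their single length per gene were used. By group mean the order in KO_BLM was Gclc, Nfe2l2, Sqstm1, Hmox1, Txnrd1, Keap1, Gclm, Srxn1, Nqo1 and Slc7a11. In WT_BLM it was Gclc, Sqstm1, Hmox1, Nfe2l2, Txnrd1, Srxn1, Gclm, Keap1, Nqo1 and Slc7a11. Gclc ran from 76.7 to 133 FPKM in KO_BLM and from 65.0 to 159 FPKM in WT_BLM, and Slc7a11 averaged 0.518 ± 0.306 FPKM in KO_BLM and 0.991 ± 0.202 FPKM in WT_BLM (SD, n = 4 each). Hmox1 came to 38.5 ± 11.1 FPKM in KO_BLM, below Nfe2l2 in every library of that group, and to 86.6 ± 30.3 FPKM in WT_BLM, above Nfe2l2 in 3 of 4 libraries. In KO_BLM the library ranges of neighbouring genes did not overlap between Sqstm1 and Hmox1, Txnrd1 and Keap1, Srxn1 and Nqo1, and Nqo1 and Slc7a11. In WT_BLM they did not overlap between Txnrd1 and Srxn1, Gclm and Keap1, Keap1 and Nqo1, and Nqo1 and Slc7a11. The ranges of the other neighbours overlapped, although within every library of the group Gclc was above Nfe2l2 and Hmox1 above Txnrd1 in KO_BLM, and Srxn1 above Gclm in WT_BLM. Nfe2l2 was above Sqstm1 in only 1 of 4 KO_BLM libraries, and Gclc above Sqstm1 in 2 of 4 WT_BLM libraries. The length behind the FPKM of Sqstm1 is 5686 bases, and its place in the order rests on that length.

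**Figure D3:**
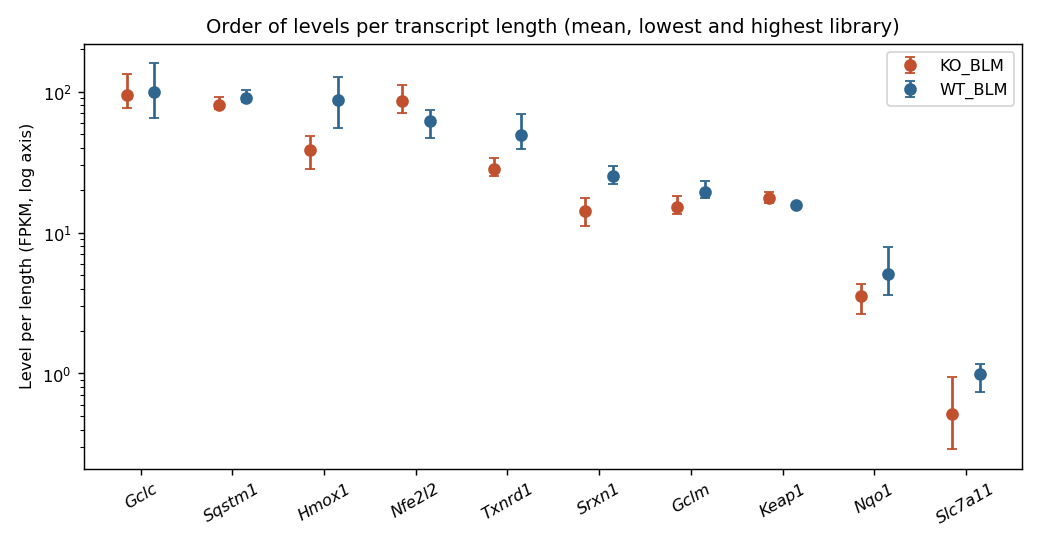
Level per length of the 10 genes in FPKM on a log axis, ordered by the WT_BLM mean. Points are group means and bars run from the lowest to the highest of 4 libraries. Gclc, Sqstm1 and Hmox1 overlap at the top in WT_BLM, where Nfe2l2 overlaps Gclc and Hmox1 but lies below Sqstm1. In KO_BLM Hmox1 lies below Gclc, Sqstm1 and Nfe2l2, and Slc7a11 is lowest in both groups.

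Genes around NRF2 were followed through lists chosen for the pathway. Of 20 tested partners and controllers of NRF2, 2 rose and 5 fell, 35.0% called against 41.5% of all genes, and their median log2 fold change was −0.12. With library totals 3 were higher and 3 lower, and by limma on log2(FPKM + 1) 4 were higher and 3 lower. Over all genes the calls were 3789 higher and 2253 lower with library totals, and 3670 higher and 2148 lower by limma. The balance thus moved with the scaling here as it did over all genes. Maff, a small MAF protein that pairs with NRF2, fell to 30.3 ± 8.35 CPM in KO_BLM, against 56.7 ± 7.65 CPM in WT_BLM (SD, n = 4 each; log2 difference −0.90, SE 0.18, edgeR adjusted p = 0.00404). Mafg, another small MAF gene, was at 122 ± 18.2 CPM in KO_BLM and 127 ± 6.88 CPM in WT_BLM and was not called (log2 fold change −0.056, edgeR adjusted p = 0.711). Bach1, a repressor that competes for the same DNA elements, fell (log2 difference −0.40, SE 0.10, edgeR adjusted p = 0.0134; 0.0592 without KO_BLM replicates 1 and 2 and 0.0809 without 3 and 4), and its relative Bach2, known from lymphocytes, rose (0.57, SE 0.12, adjusted p = 0.00429). Beside Bach2, all 8 B cell markers rose, where 20.7% of all tested genes did. The sum of these markers ran from 208 to 323 CPM in KO_BLM and from 32.9 to 112 CPM in WT_BLM. The part of B cells in the level of Bach2 was not tested. Trim21, a ubiquitin ligase that can modify p62, rose (0.63, SE 0.09, edgeR adjusted p = 0.000647). The subunits of the ligase that removes NRF2 were not called, at log2 fold changes of −0.19 for Cul3 (edgeR adjusted p = 0.178) and 0.11 for Rbx1 (adjusted p = 0.279).

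Of 20 tested autophagy genes, 3 rose and 2 fell, 25.0% called against 41.5% of all genes, with a median log2 fold change of −0.083. With library totals 5 were higher and 0 lower, and by limma on log2(FPKM + 1) 4 were higher and 0 lower. Over all genes the calls were 3789 higher and 2253 lower with library totals, and 3670 higher and 2148 lower by limma. The split between directions thus moved with the scaling here as it did over all genes. Gabarapl2, an ATG8-family protein of autophagosome membranes, rose to 67.6 ± 2.43 CPM in KO_BLM, against 50.4 ± 2.02 CPM in WT_BLM (SD, n = 4 each; log2 difference 0.42, SE 0.07, edgeR adjusted p = 0.00137). Map1lc3b, the ATG8-family protein to which p62 classically binds, was not called (log2 fold change −0.039, edgeR adjusted p = 0.763). The count of this list depended on single libraries, with 1 gene called without KO_BLM replicate 2 or WT_BLM replicate 1, 2 without KO_BLM replicate 1 or 4, 3 without WT_BLM replicate 2, and 9 by DESeq2 or limma-voom. The share of all genes called was 30.2% without KO_BLM replicate 2, 34.7% without KO_BLM replicate 1, 45.8% by DESeq2 and 51.9% by limma-voom. Calls over all genes numbered 5611 without KO_BLM replicate 4, 4811 without WT_BLM replicate 1 and 5853 without WT_BLM replicate 2, against 6118 in the main fit.

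Glutathione genes went both ways. Of 19 tested, 5 rose and 6 fell, 57.9% called against 41.5% of all genes, with a median log2 fold change of 0.0030. The genes that rose included enzymes that break glutathione down outside the cell, with Dpep1, a membrane dipeptidase, at 176 ± 57.3 CPM in KO_BLM and 41.9 ± 10.9 CPM in WT_BLM (SD, n = 4 each; log2 difference 2.07, SE 0.26, edgeR adjusted p = 0.000382), and Ggt5, a gamma-glutamyl cleaving enzyme (1.16, SE 0.15, adjusted p = 0.000461). Among those that fell were the secreted peroxidase Gpx3 (log2 difference −0.83, SE 0.18, edgeR adjusted p = 0.00596, and 0.0544 without KO_BLM replicates 3 and 4), the endoplasmic reticulum peroxidase Gpx7 (−0.54, SE 0.08, adjusted p = 0.000982) and the glutathione conjugate exporter Abcc1 (−0.62, SE 0.10, adjusted p = 0.00126). Without KO_BLM replicate 2, 6 genes of the list were called, 2 higher and 4 lower, where 30.2% of all genes were called. Gss and Gsr, which complete glutathione and reduce it again, were not called, at log2 fold changes of −0.17 (edgeR adjusted p = 0.123) and −0.47 (adjusted p = 0.0627).

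Of 18 thioredoxin, peroxiredoxin and superoxide genes, 4 rose and 3 fell, 38.9% called, close to the 41.5% of all genes, with a median log2 fold change of −0.024. Catalase, Cat, rose to 223 ± 28.0 CPM in KO_BLM, against 109 ± 10.4 CPM in WT_BLM (SD, n = 4 each; log2 difference 1.03, SE 0.11, edgeR adjusted p = 0.000138), and the extracellular superoxide dismutase Sod3 rose too (0.70, SE 0.15, adjusted p = 0.00472). Prdx5, a peroxiredoxin of mitochondria and peroxisomes, fell (log2 difference −0.65, SE 0.13, edgeR adjusted p = 0.00344). Prdx1, a substrate of sulfiredoxin and an NRF2 target, was not called (log2 fold change −0.25, edgeR adjusted p = 0.0970), nor was Txn1, the thioredoxin that Txnrd1 reduces (−0.065, adjusted p = 0.548).

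NADPH feeds both systems. Of 12 NADPH-forming enzymes 2 rose and 4 fell, 50.0% called against 41.5% of all genes, with a median log2 fold change of −0.19. With library totals 3 were higher and 3 lower, where 3789 of all genes were higher and 2253 lower. G6pdx and Pgd, the NADPH-yielding steps of the pentose phosphate pathway and NRF2 targets in other tissues, fell, with G6pdx at 61.8 ± 7.70 CPM in KO_BLM and 92.7 ± 13.0 CPM in WT_BLM (SD, n = 4 each; log2 difference −0.59, SE 0.12, edgeR adjusted p = 0.00424) and Pgd at a log2 fold change of −0.42 (SE 0.09, adjusted p = 0.00508). Both calls were lost without KO_BLM replicates 1 and 2 (edgeR adjusted p = 0.0534 for G6pdx and 0.0621 for Pgd, their highest over the alternatives). The steepest fall of the list was in Mthfd1l, of mitochondrial folate metabolism (log2 difference −1.47, SE 0.15, edgeR adjusted p = 0.000101), and Nnt, the mitochondrial transhydrogenase, rose (0.61, SE 0.13, adjusted p = 0.00460). Me1, malic enzyme and another NRF2 target, was not called (log2 fold change 0.055, edgeR adjusted p = 0.727).

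Conjugating and carbonyl-reducing enzymes that respond to NRF2 were more often higher than lower. Of 26 genes, 25 were tested, the exception being Gstm3. Of the 25, 11 rose and 4 fell, 60.0% called, with a median log2 fold change of 0.39. Among all tested genes 20.7% rose and 20.8% fell, 41.5% called. Gstm1, a glutathione transferase, rose to 456 ± 82.1 CPM in KO_BLM, against 175 ± 24.1 CPM in WT_BLM (SD, n = 4 each; log2 difference 1.39, SE 0.15, edgeR adjusted p = 0.000136), with the reservation that reads can be shared with its close paralogs. Aldh1a1 (log2 difference 1.03, SE 0.12, edgeR adjusted p = 0.000219), Aldh3a1 (1.06, SE 0.19, adjusted p = 0.00239) and the carboxylesterase Ces1g (0.96, SE 0.14, adjusted p = 0.000935) rose as well. Akr1b8, an aldo-keto reductase, fell (log2 difference −1.11, SE 0.22, edgeR adjusted p = 0.00387), and so did Ugdh, which makes UDP-glucuronate (−0.53, SE 0.09, adjusted p = 0.00194). Many of the enzymes that rose are abundant in airway secretory and alveolar type 2 cells. Summed club and goblet cell markers, of which 5 of 8 tested rose and 0 fell, ran from 12620 to 24558 CPM in KO_BLM and from 3667 to 10388 CPM in WT_BLM, and summed type 2 markers, of which 11 of 12 rose and 0 fell, from 25804 to 38807 CPM in KO_BLM and from 9836 to 14049 CPM in WT_BLM. Their part in these enzymes was not tested.

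Of 18 tested heme and iron genes, 1 rose, 9 fell and 8 were not called, with 55.6% called and a median log2 fold change of −0.34. Over all tested genes 41.5% were called, 20.7% higher and 20.8% lower. With library totals 6 genes of this list fell, and by limma on log2(FPKM + 1) 4 fell, with 1 higher each time. Lower calls over all genes dropped as well, from 3061 in the main fit to 2253 with library totals and to 2148 by limma. Cd163, the macrophage receptor for haemoglobin-haptoglobin, fell to 7.45 ± 2.64 CPM in KO_BLM, against 27.3 ± 10.8 CPM in WT_BLM (SD, n = 4 each; log2 difference −1.87, SE 0.32, edgeR adjusted p = 0.00189). Blvra, which reduces the biliverdin that heme oxygenase makes, fell too (log2 difference −0.51, SE 0.09, edgeR adjusted p = 0.00183), and Tfrc, the transferrin receptor, rose (0.55, SE 0.10, adjusted p = 0.00245). The ferritin chains Fth1 and Ftl1, both NRF2 targets, had log2 fold changes of −0.51 (SE 0.14, edgeR adjusted p = 0.0191, called in 15 of 21 alternatives, adjusted p up to 0.216) and −0.30 (SE 0.14, adjusted p = 0.109). Without KO_BLM replicate 2, 5 genes of the list were called, 1 higher and 4 lower, where 30.2% of all genes were called.

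The ATF4 stress response was included because ATF4 also drives Slc7a11, whose window holds 2 C/EBP-ATF cores. Of 18 tested genes 2 rose and 8 fell, 55.6% called against 41.5% of all genes, with a median log2 fold change of −0.36. Chac1, which rose, and Slc3a2, which fell, are also counted in the glutathione list, and Sesn2, not called, in the thioredoxin list. Of all tested genes 20.8% fell. Slc7a5, a leucine carrier that also pairs with Slc3a2, fell to 14.1 ± 2.52 CPM in KO_BLM, against 53.7 ± 7.54 CPM in WT_BLM (SD, n = 4 each; log2 difference −1.93, SE 0.14, edgeR adjusted p = 1.85e-05). The stress-induced mTOR inhibitor Ddit4 (log2 difference −1.78, SE 0.22, edgeR adjusted p = 0.000324) and the serine synthesis genes Psat1 (−1.06, SE 0.14, adjusted p = 0.000466) and Phgdh (−0.59, SE 0.12, adjusted p = 0.00483) fell. Atf4 mRNA was not called (log2 difference −0.25, SE 0.10, edgeR adjusted p = 0.0648), nor were the targets Asns (0.028, adjusted p = 0.786) and Trib3 (−0.29, adjusted p = 0.0858), and Ddit3, for CHOP, rose (0.53, SE 0.15, adjusted p = 0.0187), a call lost without KO_BLM replicates 1 and 2 (adjusted p = 0.128, its highest over the alternatives).

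**Figure D4:**
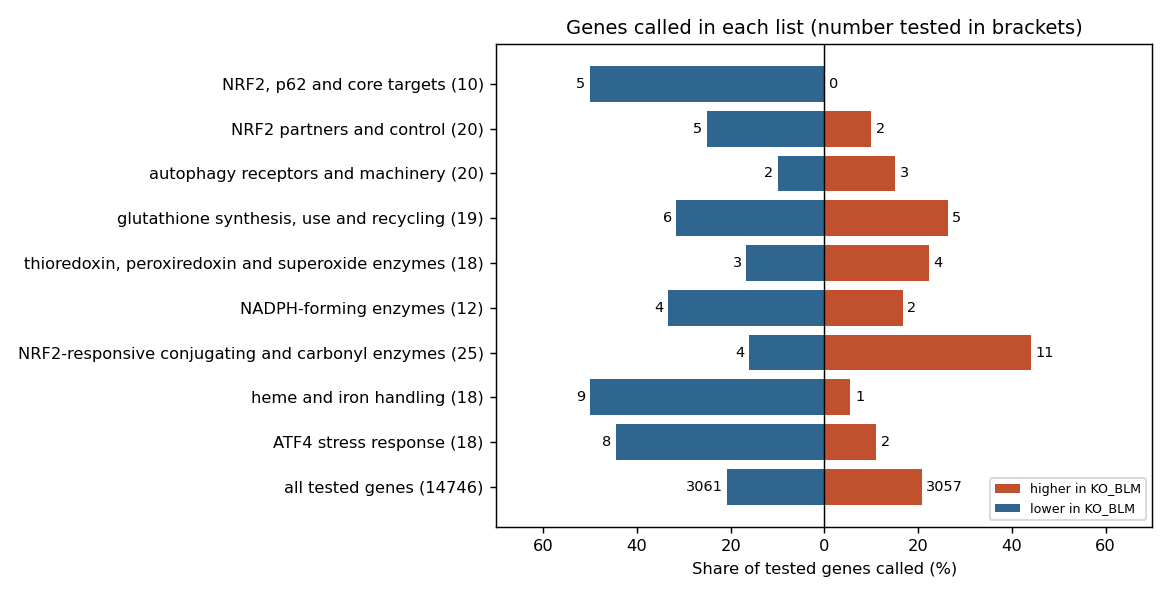
Share of tested genes called by edgeR in each list, with bars to the left for genes lower and to the right for genes higher in KO_BLM, and the number of genes at each bar end. The 10 NRF2 genes have 5 lower and 0 higher, conjugating and carbonyl enzymes 4 lower and 11 higher, and all tested genes 3061 lower and 3057 higher.

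Many cell type markers also differed between the groups, in both directions. Hmox1 is abundant in macrophages, and of 20 macrophage markers 13 fell and 1 rose, with none at 0 in any library. The marker that rose was Lyz2, which alveolar type 2 cells also make, at 6619 to 8944 CPM in KO_BLM and 3975 to 5052 CPM in WT_BLM. The sum over all 20 markers was 8030 to 11074 CPM in KO_BLM and 7636 to 9472 CPM in WT_BLM. Without Lyz2, a sum taken after its value was seen, the markers came to 1411, 1427, 2234 and 2130 CPM in KO_BLM, against 4680, 3144, 4420 and 5163 CPM in WT_BLM, so that KO_BLM replicates 1 and 2 lay below 3 and 4 and WT_BLM replicate 2 was lowest in its group, as for Hmox1. Markers of transitional alveolar cells, of which 8 of 10 fell and 0 rose, summed to 1391, 1454, 1928 and 1985 CPM in KO_BLM and to 3383, 2838, 2964 and 4199 CPM in WT_BLM. Fibroblast and myofibroblast markers, with 10 of 14 lower and 2 higher, ran from 4303 to 4567 CPM in KO_BLM and from 9730 to 10947 CPM in WT_BLM. Of 12 T and NK markers 11 rose and 0 fell, and of 10 ciliated markers 9 rose and 0 fell. Of 10 endothelial markers 7 rose and 2 fell, and of 8 red cell markers 7 rose and 0 fell. Of 8 type 1 alveolar markers 3 rose and 0 fell, and of 8 neutrophil markers 0 rose and 3 fell. Among all tested genes 20.7% rose and 20.8% fell, 41.5% called. The neutrophil and type 1 lists, at 37.5% called each, lay below 41.5%. Lung identity was plain in all libraries, with type 1 alveolar markers at 6865 to 7353 CPM in KO_BLM and 5241 to 6721 CPM in WT_BLM. The part of these cell types in the levels of the 10 genes was not tested.

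**Figure D5:**
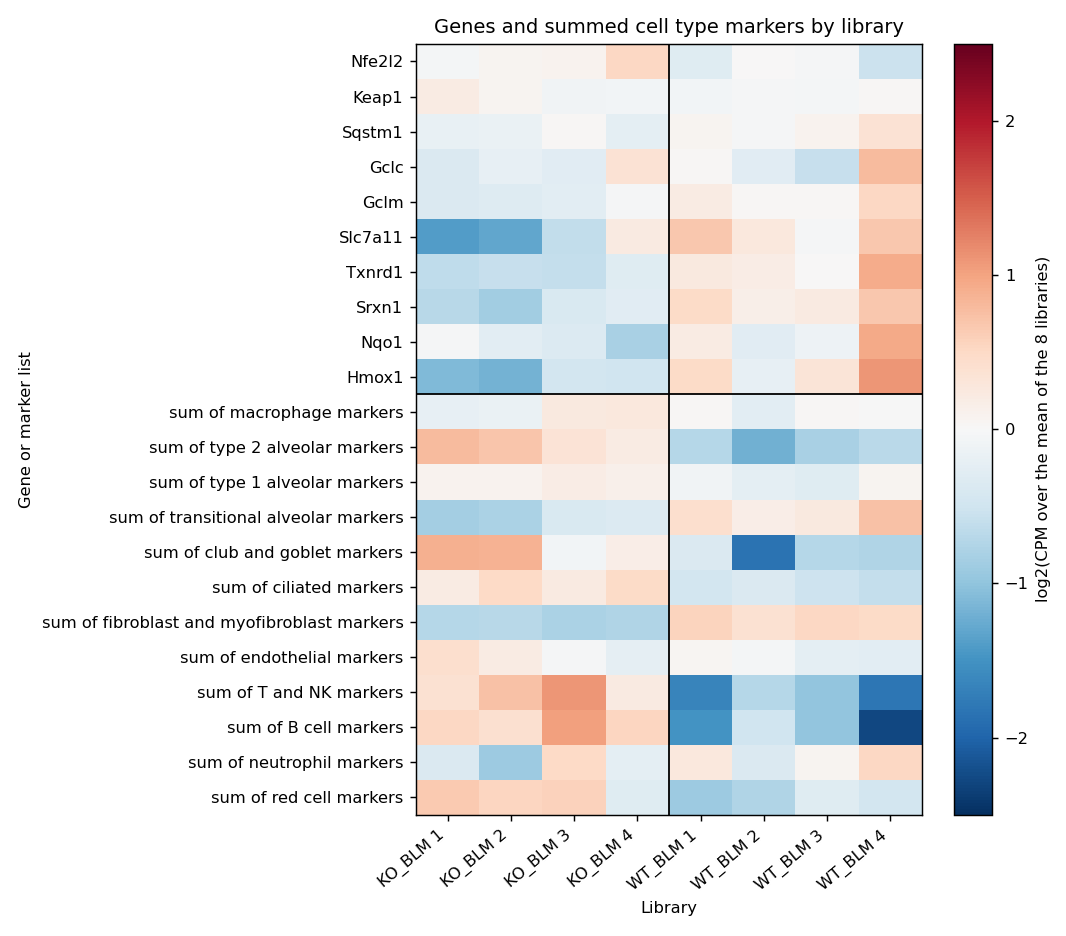
Level of the 10 genes (upper block) and summed levels of 12 cell type marker lists (lower block) in each library, as log2 of CPM over the mean of the 8 libraries, from blue (lower) to red (higher). KO_BLM replicates 1 and 2 are the lowest libraries for Hmox1, Slc7a11 and the transitional markers, and WT_BLM replicate 4 is the highest for Hmox1, Txnrd1 and the transitional markers.

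The genes whose profile over the 8 libraries lay closest to a regulator or to Hmox1 were sought among 10728 other genes averaging 10 CPM or more, by the root mean square difference of standardised log2 CPM. For Hmox1 they were Cd302, a C-type lectin receptor (0.116 SD units, where the median gene was at 1.33), Washc5, a subunit of the endosomal WASH complex (0.124), and Ctsk, the collagen-degrading cathepsin K (0.152). All of them fell, which their choice by likeness to Hmox1 largely fixed. Ctsk was at 45.6, 45.1, 95.1 and 117 CPM in KO_BLM and 254, 114, 182 and 409 CPM in WT_BLM (log2 difference −1.66, SE 0.42). For Sqstm1 the closest were Eif3h, a translation initiation factor subunit (0.116, median gene 1.31), Cog7 (0.169) and Sdf4 (0.185), of which Cog7 was called lower. For Nfe2l2 they were Snx6, a sorting nexin (0.226, median gene 1.51), Znhit1 (0.246) and Arhgap18 (0.251), none of them called. With 8 libraries and this many genes, close profiles are to be found for most genes, and no p-value is attached to them. As the genes were chosen from the same libraries, their directions and calls are not separate results.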

How the data were processed

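Poly(A) RNA of 8 lung libraries was sequenced after TruSeq stranded preparation, per the labels' protocols. The authors deposited raw counts per gene and FPKM values; mm10, DESeq, HTSeq, Trimmomatic and Cufflinks are named, without roles or versions, per the submitters' processing notes, and the strand setting is not given in the sources used here. The deposited FPKM values equalled count over library total and a single length for 100% of genes (tolerance 1e-06), so they are not a separate measurement. The knockout columns carry PHT2, another name of SLC15A3; 0 columns belonged to other samples. In R 4.3.3, edgeR 4.0.16 fitted all 8 libraries without covariates (TMM, filterByExpr with a minimum count of 10 and a minimum total of 15, robust quasi-likelihood test, Benjamini-Hochberg threshold 0.05 over 14746 genes), and the SE was taken as the log2 fold change over the root of F. The biological coefficient of variation was 16.6%. Alternatives used DESeq2 1.42.0, limma 3.58.1 (voom, and log2(FPKM + 1) or log2(FPKM + 0.1)), other filters and scalings, a replicate block and left-out libraries, 21 in all, of which 2 (without KO_BLM replicates 1 and 2, and without 3 and 4) were added after seeing the data. The fit was tested on simulated data with known fold changes.

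The members and lists were chosen with earlier results of these data known. Some genes stand in several lists, as Chac1, Slc3a2 and Sesn2 do, and Hp in both the heme and the club and goblet lists. Genes named from a pathway list were its called members of largest fold change, up to 4 in each direction, of which the text names a part. Uncalled genes, Slc3a2, Blvra, Fth1 and the 5 ratios were chosen after their values were seen, so the ratios carry no test.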

Additional observations from a re-analysis of the deposited data

Results flagged for a closer look

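Within groups of 4 libraries, the highest or lowest library was set apart from the rest when its gap to the nearest, as a share of the group's range, exceeded Dixon's critical value. Of 144 groups examined, 10 met this, where chance gives about 1 in 20. Among the 10 NRF2 genes it was met by Gclc in KO_BLM, where replicate 4 reached 439 CPM and the others lay between 269 and 297 CPM. WT_BLM replicate 4 stood above its group for Bach1 (94.3 CPM, others 71.7 to 74.0), Mafk (138 CPM, others 103 to 106), Glrx (81.6 CPM, others 55.2 to 59.6) and Sod1 (197 CPM, others 150 to 157). KO_BLM replicate 4 stood below its group for Map1lc3a (93.8 CPM, others 106 to 107), Txnrd2 (14.5 CPM, others 16.1 to 16.4) and the summed red cell markers (1473 CPM, others 2640 to 2853). KO_BLM replicate 3 was set apart by a low Ces1g (8.86 CPM, others 10.9 to 11.3) and a high Slc7a5 (17.8 CPM, with 12.8 CPM the nearest).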

How the results depend on the processing

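The count of 5 lower NRF2 genes became 3 in limma on log2(FPKM + 1) or log2(FPKM + 0.1), 6 by DESeq2 and limma-voom, 4 with library totals, 1 without KO_BLM replicates 1 and 2, and 3 to 5 when single libraries were left out. Of all genes 41.5% were called in either direction in the main fit (3061 lower), and 30.9% and 31.2% by limma on FPKM (2148 and 2194 lower). The share was 45.8% by DESeq2 (3431 lower), 51.9% by limma-voom (3853 lower), 41.0% with library totals (2253 lower) and 22.6% without KO_BLM replicates 1 and 2 (1645 lower). Over all genes, 6118 calls became 3402 without KO_BLM replicates 1 and 2 and 4494 to 5853 without single libraries. The sign turned for Keap1 without KO_BLM replicates 1 and 2 (−0.045) and for Gclc without WT_BLM replicate 4 (0.15; −0.38 to 0.15 over single left-out libraries), and the cause was not tested. Of the values of the 10 genes under single alternatives, 187 kept direction and call, 17 lost the call and 3 gained it. Same-numbered libraries did not deviate together (correlations from −0.0922 to 0.0887, and from −0.148 to 0.14 for other pairs). A pairing that touches few genes would not show in correlations over all genes, so pairing by number was not excluded. With a replicate block 5 of the 10 genes and 5702 of all genes were called. Depth limits Slc7a11 most, with 49 counts in its lowest library.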
